A study of Mus musculus with 4 samples.

Results

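Transforming growth factor beta (TGF-beta) ligands, receptors and binding proteins were followed through 9 genes: the ligand genes Tgfb1, Tgfb2, Tgfb3 and Inhba, the receptor genes Tgfbr1 and Tgfbr2, the latent TGF-beta binding protein genes Ltbp1 and Ltbp2, and the intracellular inhibitor gene Smad7. They were chosen by symbol, as all non-control probes of the array that carry one of these gene names, which gave 19 of 56605 probes and 9 of 24813 genes. The samples were brainstem/cerebellum and spinal cord of transgenic mice, called MSA Tg mice by the submitters (MSA is the usual short form of multiple system atrophy), and the same tissues of wild-type mice. All mice were 24 weeks old and all had a mixed background of the strains C57BL/6, 129 and C3H. The labels do not name the transgene or its promoter, although the sample titles start with PLP, and do not give the number of animals behind a sample. Each of the 4 groups was hybridised to 1 one-colour Agilent array of 60-base probes, so no difference below has a replicate check, and the number of arrays limits the precision.

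TGF-beta is secreted in a latent complex, in which its own propeptide is held to a latent TGF-beta binding protein and through it to the extracellular matrix. Once released, the ligand joins a type II and a type I receptor kinase. The type I kinase phosphorylates SMAD proteins, which enter the nucleus and change transcription. In the central nervous system the pathway is known for its part in maintaining microglia, in astrocyte reactions and in the deposition of matrix around vessels and scars.

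Of the 59305 non-control spots on each array, 59.2% to 64.0% were well above background, and no spot was saturated. Values below are log2 signals from which the 75th percentile of the array was subtracted, so that 0 is the signal that 3 in 4 spots do not exceed. They are comparable between arrays for 1 probe, not between probes. The array of wild-type spinal cord has a slide of its own and the other 3 share one, so slide and genotype cannot be told apart in spinal cord. The tissue labels were checked against markers: 7 of 7 cerebellar genes were above background on both brainstem/cerebellum arrays and 5 of 7 on both spinal cord arrays, with Gabra6 and Cbln3 not above background there. Of 8 Hox genes of the caudal cord, 8 were above background on both spinal cord arrays and 2 on both brainstem/cerebellum arrays. Repeated spots of 1 probe gave a technical SD of a difference between 2 spots of 0.10 for probes from 0 to 2 on this scale, 0.13 from -2 to 0 and 0.22 from -4 to -2, which leaves out differences between animals and hybridisations. These SDs rest on 29, 12 and 11 sets of repeated spots in this order, each of 1 probe on 1 array, and control probes were included.

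The probes behind the ligand and receptor values that follow are shown because 2 of the ligand genes are close relatives. The Tgfb1 probe A_51_P390715 lies at chr7:26489877-26489936 on the + strand of mm9, the build of the files. The Tgfb2 probe A_65_P10913 lies at chr1:188449333-188449392 on the - strand. The files give no exon or intron for a probe. Both read the end of the coding sequence, which encodes the mature growth factor. Capitals mark identical bases where the probes overlap when laid side by side without gaps: 28 of 41 bases, or 68.3%, were identical. Whether RNA of one gene binds the probe of the other was not tested.
Tgfb1 A_51_P390715: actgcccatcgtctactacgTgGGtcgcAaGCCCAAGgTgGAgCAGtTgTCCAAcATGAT
Tgfb2 A_65_P10913: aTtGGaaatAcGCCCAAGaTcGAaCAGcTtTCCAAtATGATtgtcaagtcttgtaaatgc
The Inhba probe A_51_P239750 lies at chr13:16118634-16118693 on the + strand. Of the Tgfbr1 probes, A_51_P280137 is shown because its 60 bases are spread over 3659 genomic bases, chr4:47419898-47423556 on the + strand, so it reads spliced RNA. No capitals are used in these sequences.
Inhba A_51_P239750: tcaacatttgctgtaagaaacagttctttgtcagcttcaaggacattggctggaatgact
Tgfbr1 A_51_P280137: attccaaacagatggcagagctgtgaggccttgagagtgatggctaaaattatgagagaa

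The first comparison was that of transgenic with wild-type brainstem/cerebellum. No member was 2-fold higher or lower there, against 2.69% of 16125 genes above background on both arrays that were at least 2-fold higher and 0.291% that were lower by that much. All 9 members were above background on all 4 arrays at their brightest probe (by the mean over the arrays), which stands for the gene here. Their median difference, transgenic minus wild type, was 0.27, with 7 of 9 above 0, against a median of -0.08 over all genes. In this tissue 61.6% of all genes lay below the -0.005 of Tgfb3, so most genes were below 0. With scaling on the array median, Tgfb2 and Inhba came to -0.07 each and so lay below 0. The same comparison in spinal cord had 4 members past 2-fold upwards (Tgfb1, Tgfbr1, Tgfbr2 and Ltbp2) and 1 past it downwards (Smad7), or 44.4% and 11.1% of the 9. Over all 16385 genes compared in spinal cord, 8.52% were higher and 6.32% lower by at least 2-fold. The members were chosen with earlier results of these data known, so these shares describe the members and carry no test. The members' median in spinal cord was 0.46, with 6 of 9 above 0, against -0.05 over all genes. There 45.4% of all genes lay below the -0.12 of Tgfb3 and 57.1% below the 0.04 of Inhba. Scaling on the spike-in control probes moved the median of all genes in spinal cord to -0.51 and that of the members to 0.00, and the mean over probes of a gene gave a members' median of 0.08.

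**Figure D1:**
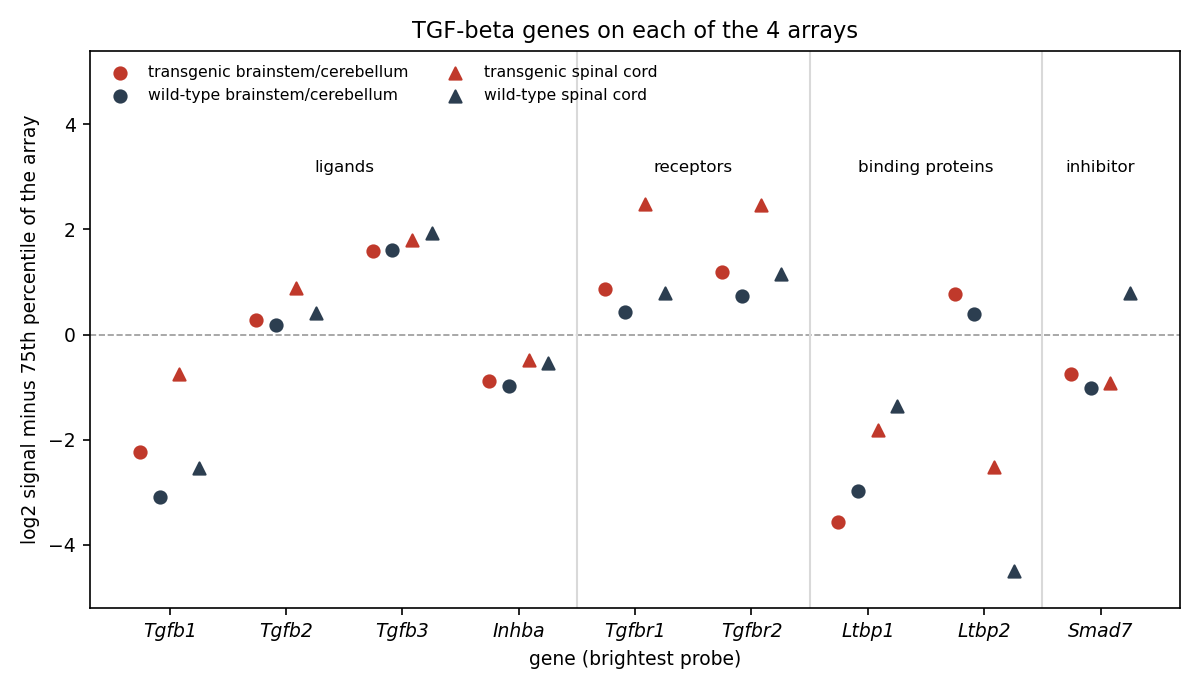
Values of the 9 genes at their brightest probe on each array, as log2 signal minus the 75th percentile of the array (dashed line at 0), with transgenic arrays in red, wild-type arrays in dark blue, circles for brainstem/cerebellum and triangles for spinal cord. Tgfb1, Tgfbr1 and Tgfbr2 had their highest point in transgenic spinal cord, Smad7 in wild-type spinal cord and Ltbp2 in brainstem/cerebellum.

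Among the ligands, Tgfb1 had the largest difference between genotypes in each tissue, as the plot of values by array shows. Tgfb1 encodes the TGF-beta isoform that microglia and other immune cells make. It stood at -2.24 (transgenic) and -3.08 (wild type) in brainstem/cerebellum, and at -0.76 (transgenic) and -2.54 (wild type) in spinal cord. The transgenic spinal cord array was thus the highest, and in each tissue the transgenic array lay above the wild-type array. The differences were 0.85 in brainstem/cerebellum (1.80-fold) and 1.78 in spinal cord (3.45-fold), against technical SDs of 0.22 and 0.13. In each tissue 96.5% of all genes had a smaller signed difference. Under the normexp background correction the brainstem/cerebellum difference was 0.40 and the spinal cord difference 1.30. The other Tgfb1 probe, A_66_P135688 (chr7:26477408-26477467), was well above background on the transgenic spinal cord array only, where its value gave a bound of at least 2.13 over the wild-type array.

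Tgfb2, the isoform of neurons and astrocytes in the developing and adult brain, varied less. At its brightest probe it stood at 0.27 (transgenic) and 0.18 (wild type) in brainstem/cerebellum, and at 0.88 (transgenic) and 0.42 (wild type) in spinal cord. The differences were 0.09 and 0.46 in these tissues. The second Tgfb2 probe, A_51_P317640, gave 0.19 in brainstem/cerebellum and -0.30 in spinal cord, so the probes disagree in sign in spinal cord and no direction is drawn there.

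Tgfb3, the remaining isoform (probe A_51_P124748 at chr12:87397804-87397863), had the narrowest range of all members, 0.33 over the 4 arrays. It stood at 1.59 (transgenic) and 1.60 (wild type) in brainstem/cerebellum, and at 1.81 (transgenic) and 1.92 (wild type) in spinal cord. Its differences were 0.00 and -0.12, the first below and the second near the technical SD of 0.10, and the sign in brainstem/cerebellum changed under 5 of 8 other settings. Inhba encodes the subunit of activin A, a ligand that signals through its own receptors to the same SMADs. It stood at -0.89 (transgenic) and -0.98 (wild type) in brainstem/cerebellum, and at -0.49 (transgenic) and -0.53 (wild type) in spinal cord. Its differences of 0.09 and 0.04 were below the technical SD of 0.13, and the sign changed with scaling on the median in both tissues and on the spike-in probes in spinal cord.

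Both receptor genes were higher on the transgenic array in both tissues, and past 2-fold in spinal cord. Tgfbr1 (brightest probe A_52_P4538 at chr4:47427421-47427480) encodes the type I receptor kinase, which phosphorylates SMAD2 and SMAD3. It stood at 0.87 (transgenic) and 0.43 (wild type) in brainstem/cerebellum, and at 2.49 (transgenic) and 0.79 (wild type) in spinal cord. The transgenic spinal cord array was the highest and the other arrays lay within a narrow band below it. The differences were 0.44 (1.36-fold) in brainstem/cerebellum and 1.70 (3.25-fold) in spinal cord, against a technical SD of 0.10 in each. In spinal cord the value stayed between 1.24 and 1.74 over 8 other settings. The splice-spanning probe shown above stood at -4.72 on the transgenic brainstem/cerebellum array, and at -3.06 (transgenic) and -4.83 (wild type) in spinal cord, where its difference was 1.77. It was not well above background on the wild-type brainstem/cerebellum array, which gave a bound of at least 0.52 in that tissue. Another Tgfbr1 probe, A_55_P1960901, was above background on the transgenic spinal cord array only, with a bound of at least 1.097, and the last, A_55_P1960906, on no array. The 2 Tgfbr1 probes measured on both spinal cord arrays thus gave differences of 1.70 and 1.77.

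Tgfbr2, on chromosome 9, encodes the type II receptor kinase, which binds the ligand first and activates the type I receptor. It stood at 1.20 (transgenic) and 0.73 (wild type) in brainstem/cerebellum, and at 2.47 (transgenic) and 1.15 (wild type) in spinal cord. As for Tgfbr1, the transgenic spinal cord array was the highest, above an order of transgenic brainstem/cerebellum, wild-type spinal cord and wild-type brainstem/cerebellum. The differences were 0.47 (1.38-fold) and 1.32 (2.502-fold). With spike-in scaling the spinal cord difference was 0.87, under 2-fold. Tgfbr2 has 1 probe on the array, A_55_P2909739, so no second probe bears on it. The position given for it, chr9:115996798-115996807, spans 10 bases for a probe of 60, so its placement is incomplete.

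**Figure D2:**
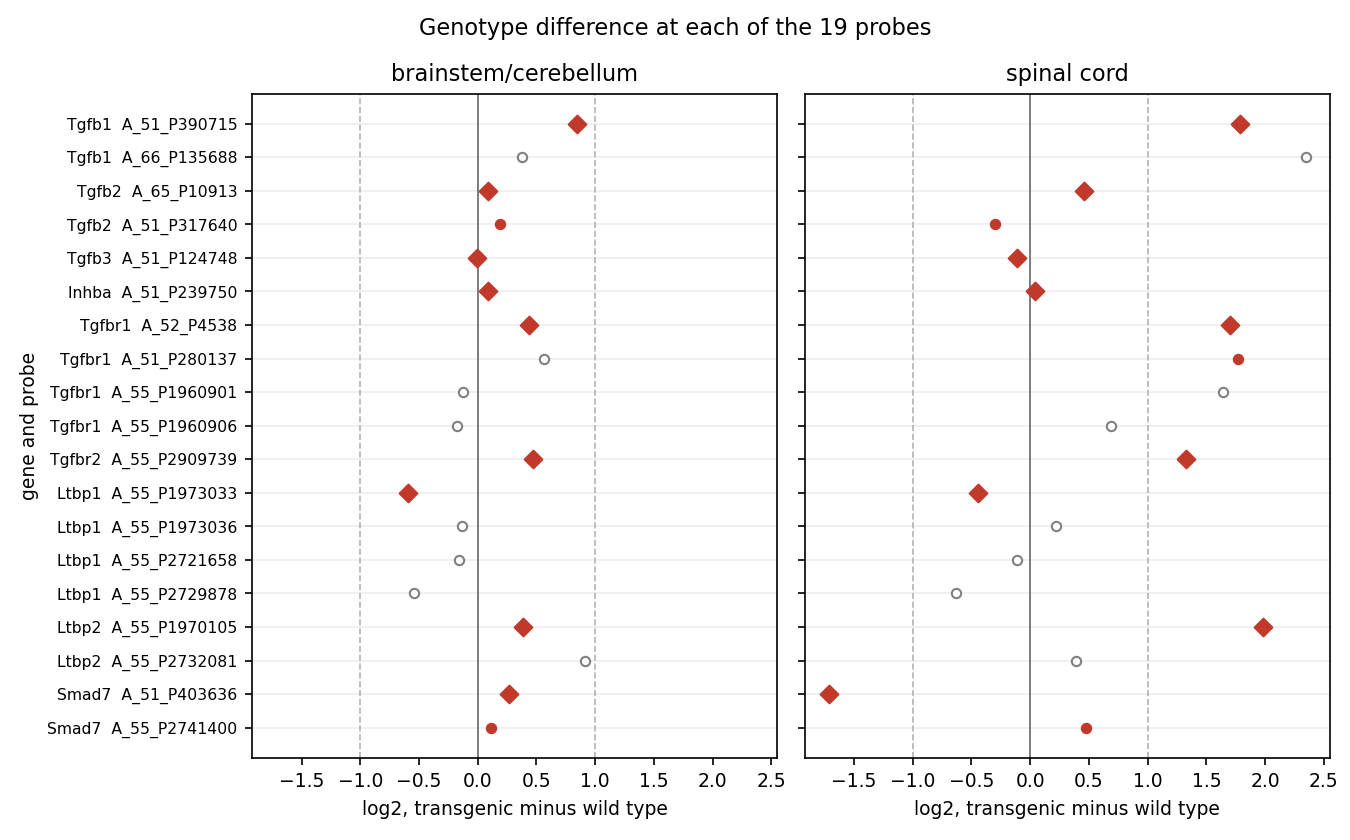
Difference, transgenic minus wild type (log2), at each of the 19 probes in brainstem/cerebellum (left) and spinal cord (right), with diamonds for the brightest probe of a gene, filled symbols for probes well above background on both arrays, open symbols for the rest and dashed lines at 2-fold. The brightest probes of Tgfb1, Tgfbr1, Tgfbr2 and Ltbp2 lie right of 2-fold in spinal cord, and the filled symbols of Smad7 lie on both sides of 0 there.

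The binding proteins differed from each other in tissue and in genotype. Ltbp2 (brightest probe A_55_P1970105 at chr12:86124167-86124226) encodes a microfibril-associated protein of the LTBP family that, unlike its relatives, does not bind latent TGF-beta. It stood at 0.78 (transgenic) and 0.39 (wild type) in brainstem/cerebellum, and at -2.52 (transgenic) and -4.50 (wild type) in spinal cord. Both brainstem/cerebellum arrays lay above both spinal cord arrays, and the range of 5.27 was the widest of the 9 members. In spinal cord the difference between genotypes was 1.98, or 3.95-fold, at a level where the technical SD was 0.22, and 97.2% of all genes had a smaller signed difference. In brainstem/cerebellum it was 0.38, or 1.30-fold. The spinal cord difference was 0.90 under the normexp background correction, below 2-fold, and 1.19 as the mean over probes. The second probe, A_55_P2732081, was well above background on no array.

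Ltbp1 (brightest probe A_55_P1973033 at chr17:75790530-75790589) encodes the LTBP that carries latent TGF-beta into the matrix. It stood at -3.56 (transgenic) and -2.97 (wild type) in brainstem/cerebellum, and at -1.81 (transgenic) and -1.37 (wild type) in spinal cord. It was the only member whose value was lower on the transgenic array in both tissues by more than the technical SD, by differences of -0.59 (1.51-fold lower) and -0.44 (1.36-fold lower). In brainstem/cerebellum 2.26% of all genes had a smaller signed difference, and in spinal cord 24.1%. Neither difference reached 2-fold, and under the other settings they ran between -0.76 and -0.35 in brainstem/cerebellum and between -0.90 and -0.24 in spinal cord. Of the other 3 Ltbp1 probes, 2 were above background on no array and A_55_P2729878 on the wild-type spinal cord array only.

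Smad7 encodes an inhibitory SMAD that blocks the type I receptor and is itself a known target of the pathway. Its brightest probe, A_51_P403636, stood at -0.75 (transgenic) and -1.02 (wild type) in brainstem/cerebellum, and at -0.92 (transgenic) and 0.80 (wild type) in spinal cord. The wild-type spinal cord array, alone on its slide, was high, and the other 3 arrays lay within 0.27 of each other. The differences were 0.27 in brainstem/cerebellum and -1.72 in spinal cord, 3.29-fold lower. The second probe, A_55_P2741400, stood at -2.82 (transgenic) and -2.93 (wild type) in brainstem/cerebellum, and at -2.58 (transgenic) and -3.06 (wild type) in spinal cord. Its differences were 0.12 and 0.48, so the probes of Smad7 disagree in sign in spinal cord, as the plot of all 19 probes shows, and no array stood apart at the second probe. The mean over both probes was -0.62 in spinal cord, under 2-fold. The part of the slide in the high value of the first probe was not tested.

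The genotype differences of both tissues were set side by side for each member. Tgfb1, Tgfbr1, Tgfbr2 and Ltbp2 were above 0 in both tissues and larger in spinal cord, by 0.94, 1.26, 0.86 and 1.60 in this order, a contrast that was not tested. All genes spread wider in spinal cord: their central 95% ran from -1.39 to 2.09, against -0.58 to 1.04 in brainstem/cerebellum. The share of all genes with a smaller signed difference was 96.5% in each tissue for Tgfb1. In brainstem/cerebellum and spinal cord it was 91.3% and 96.2% for Tgfbr1, 91.9% and 94.4% for Tgfbr2, and 90.0% and 97.2% for Ltbp2. Among all 15729 genes above background on the 4 arrays, 848 passed 2-fold upwards in spinal cord alone, and 349 in both tissues. These 4 members belong to the first of those sets. Ltbp1 lay below 0 in both tissues, and so did Tgfb3, at -0.005 in brainstem/cerebellum and -0.12 in spinal cord.

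**Figure D3:**
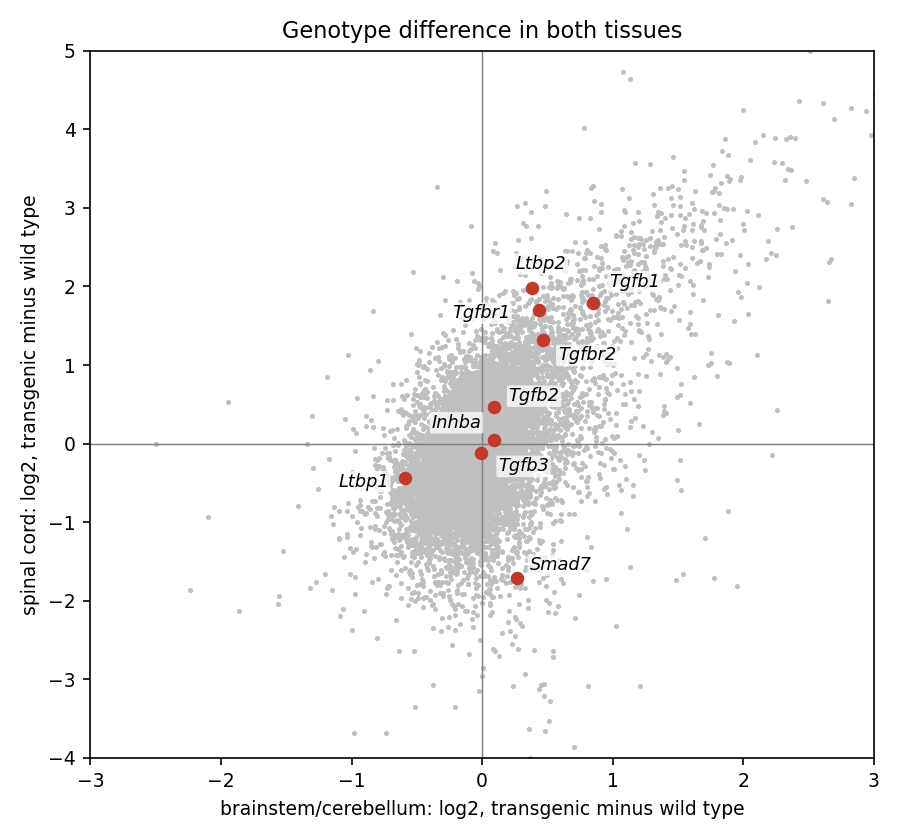
Difference, transgenic minus wild type (log2), in brainstem/cerebellum (x axis) and spinal cord (y axis) for the 9 members (red, named) and the 15729 genes above background on all 4 arrays (grey), of which 41 lie outside the axes. Tgfb1, Tgfbr1, Tgfbr2 and Ltbp2 lie in the upper right quadrant, as do Tgfb2 and Inhba nearer to its corner at 0. Ltbp1 lies in the lower left, as does Tgfb3 close to 0, and Smad7 lies below 0 on the y axis only.

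The arrays also compare the tissues within each genotype. In transgenic mice, 4 members were higher in spinal cord than in brainstem/cerebellum by at least 2-fold (Ltbp1 by 1.75, Tgfbr1 by 1.62, Tgfb1 by 1.48 and Tgfbr2 by 1.27) and 1 was lower (Ltbp2, at -3.29). Over all genes the shares were 10.2% higher and 6.11% lower in that comparison, which lies within 1 slide. In wild-type mice, Ltbp1 (1.60) and Smad7 (1.82 at its brightest probe, -0.12 at the other) were past 2-fold upwards in spinal cord and Ltbp2 (-4.89) downwards, against 6.45% and 4.27% of all genes. The wild-type arrays lie on different slides, so slide and tissue cannot be told apart in wild-type mice. The wild-type differences of Tgfb1, Tgfbr1 and Tgfbr2 between tissues were 0.54, 0.36 and 0.42. Ltbp1 and Ltbp2 thus differed between tissues in opposite directions in both genotypes.

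Markers of microglia and macrophages were compared between genotypes in the same way. Of 8 such genes, 6 were at least 2-fold higher in transgenic spinal cord and 5 in transgenic brainstem/cerebellum, against 8.52% and 2.69% of all genes. The list was chosen with earlier results of these data known. The markers' medians were 2.55 and 1.18. Their summed linear level, in units of the 75th percentile, was 85.2 (transgenic) and 49.3 (wild type) in brainstem/cerebellum, and 257 (transgenic) and 79.5 (wild type) in spinal cord. All 8 were above background on every array, and none was at 0. Cd68, a lysosomal protein of phagocytes, was higher by 3.73 in spinal cord and 1.84 in brainstem/cerebellum, and C1qa, a complement subunit made by microglia, by 3.40 and 1.98. Itgam and Ptprc lay at -0.28 and -0.85 in spinal cord at their brightest probes. Another probe of Itgam gave 0.21 there, and other probes of Ptprc gave 1.97 to 2.499. Csf1r differed by 1.52 in spinal cord at its brightest probe and by 0.25 at another. The summed level of the 9 members was 11.5 (transgenic) and 9.73 (wild type) in brainstem/cerebellum, and 18.8 (transgenic) and 12.1 (wild type) in spinal cord. In bulk tissue, more or fewer cells of a type and more or less RNA per cell cannot be told apart, and the part of microglia or macrophage content in the differences of the members was not tested.

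Markers of other cell types had at most 3 of 7 genes past 2-fold in a tissue, at the brightest probe of each gene. Over all genes, 8.52% were higher and 6.32% lower by at least 2-fold in spinal cord, and 2.69% and 0.291% in brainstem/cerebellum. Astrocyte markers had 2 of 7 genes at least 2-fold higher in transgenic brainstem/cerebellum, and 1 higher and 2 lower in transgenic spinal cord. Gja1 was higher in brainstem/cerebellum (1.95) and lower in spinal cord (-1.81). Its other probes gave -0.28 to 0.50 and -0.43 to -0.41 in these tissues. Gfap was higher in both, and its other probe gave 0.81 and 0.40. The other probe of Gjb6, lower in spinal cord, gave -1.11 there. Neuronal markers had 0 of 7 genes past 2-fold in brainstem/cerebellum and 2 of 7 lower in spinal cord, with summed levels of 210 (transgenic) and 409 (wild type) in spinal cord. Those 2 were Nefm (-1.35, with -1.24 at its other probe) and Nefl (-1.15, with -0.58 at its other probe). Markers of meningeal and perivascular fibroblasts had 2 of 7 higher and 1 lower in spinal cord and none past 2-fold in brainstem/cerebellum, with medians of 0.05 and 0.26. Another probe of Pdgfra, 1 of the 2 higher genes, gave 0.07 in spinal cord. Pericyte markers had 1 of 6 higher in spinal cord and 1 lower in brainstem/cerebellum. These were Cspg4 (2.36, with 0.35 at another probe) and Myh11 (-2.10, with 0.39 at another probe). Oligodendrocyte markers had 1 of 7 higher in spinal cord, and endothelial markers had 1 of 7 lower in each tissue. The part of these cells in the differences of the members was not tested.

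The rest of the pathway was read through 4 lists with 74 genes. In brainstem/cerebellum 0 of them were at least 2-fold higher and 1 was lower as a bound (Bmp3, above background on the wild-type array only, with a bound of -1.18), and the median over 65 genes above background on both arrays was -0.02. In spinal cord 5 were past 2-fold upwards and 4 downwards, with a median of 0.05 over 67 genes. Both counts in spinal cord, 7.46% and 5.97% of the 67, lay close to the shares of 8.52% and 6.32% over all genes. They are not read as a result about the lists. With bounds included, the shares over all genes were 3.63% higher and 0.587% lower in brainstem/cerebellum and 9.8% higher and 6.85% lower in spinal cord.

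Of 17 genes listed as other ligands of the family, 1 passed 2-fold upwards in spinal cord (Bmp1, not itself a ligand) and 1 downwards (Gdf10). Bmp1, a protease that cleaves procollagens and latent complexes in spite of its name, differed by 1.71 in spinal cord and 0.22 in brainstem/cerebellum, and its other probes gave 0.05 to 1.73 in spinal cord. Gdf10, a ligand of cerebellar Bergmann glia, was lower by a difference of -1.12 in spinal cord and stood at 0.39 in brainstem/cerebellum. Of 13 other receptors and co-receptors, 0 passed 2-fold upwards in spinal cord and 2 downwards, Acvr1c (-1.93), a type I receptor of activins, and Amhr2 (-1.1), the receptor of anti-Müllerian hormone. The list's medians were -0.20 in spinal cord and -0.07 in brainstem/cerebellum beside differences of 1.70 and 1.32 for Tgfbr1 and Tgfbr2 in spinal cord. Acvrl1, an endothelial type I receptor, lay at 0.84 in spinal cord and -0.31 in brainstem/cerebellum. Its other probe gave 1.09 and 0.05, and another probe of Amhr2 gave -0.70 in spinal cord, under 2-fold.

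Among 22 genes of latency, activation and extracellular binding, 2 passed 2-fold upwards and 1 downwards in spinal cord. Nrros, which holds latent TGF-beta on the surface of microglia, differed by 1.85 in spinal cord and 0.37 in brainstem/cerebellum. It stood at 1.80 (transgenic) and -0.04 (wild type) in spinal cord, so the transgenic array was the higher. Fstl3, which binds activins, differed by 1.30 and 0.80. Ltbp4, another LTBP, was lower in both tissues, by differences of -1.05 in spinal cord and -0.82 in brainstem/cerebellum, and its second probe gave -1.03 and -0.82. Itgb1, a subunit of integrins that activate latent TGF-beta, lay just under 2-fold at 0.998 in spinal cord, and its other probe gave 1.48.

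Among 22 SMADs and intracellular regulators, 2 passed 2-fold upwards in spinal cord and 0 downwards, with medians of 0.46 there and -0.01 in brainstem/cerebellum. Tgif1 and Tgif2, nuclear corepressors of SMADs, differed by 2.28 and 1.67 in spinal cord and by 0.73 and -0.07 in brainstem/cerebellum. Skil, another SMAD corepressor, lay at 0.89 in spinal cord, and its other probes gave 1.12 to 1.20. Smad6, the inhibitory SMAD related to Smad7, differed by 0.48 in spinal cord and 0.83 in brainstem/cerebellum.

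**Figure D4:**
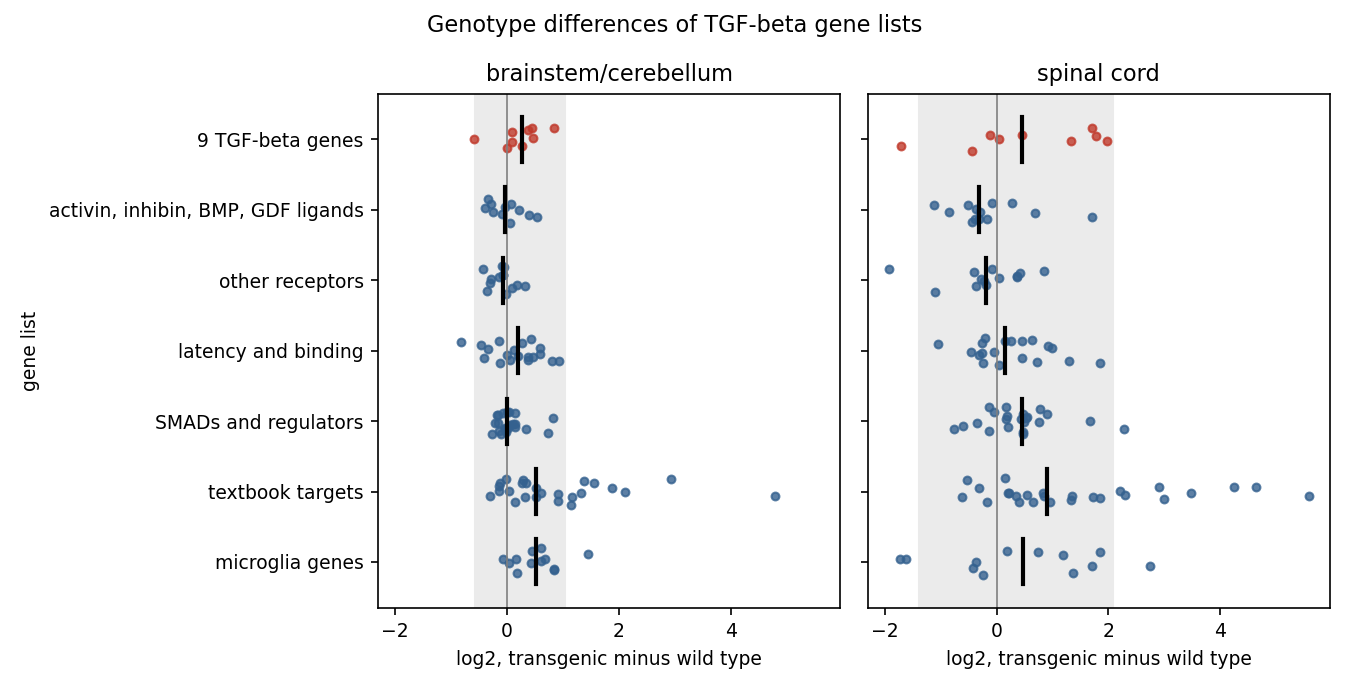
Difference, transgenic minus wild type (log2), of each gene above background on both arrays, by list, in brainstem/cerebellum (left) and spinal cord (right), with black bars for list medians, grey bands for the central 95% of all genes and vertical scatter for legibility only. In spinal cord the medians are 0.46 for the 9 members and 0.90 for textbook targets, against -0.31 for the list of other ligands (Bmp1 included) and -0.20 for other receptors.

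Genes that are textbook targets of TGF-beta and SMADs were also listed. Of 26 such genes, 12 were at least 2-fold higher in transgenic spinal cord and 9 in transgenic brainstem/cerebellum, against 8.52% and 2.69% of all genes. Lower by that much were 0 in either tissue, against 6.32% and 0.291% of all genes. The list's medians were 0.90 and 0.52 in the same order, and it was chosen with earlier results of these data known. Timp1, an inhibitor of matrix metalloproteases, differed by 5.58 in spinal cord and 4.79 in brainstem/cerebellum. Postn, a matrix protein of fibroblasts, differed by 4.64 in spinal cord and 1.14 in brainstem/cerebellum, and Ccn1, a matrix-associated signal protein, by 3.47 and 1.55. Many of these genes also answer to other signals, and which signal moved them was not tested. Col1a1 and Col1a2 of this list are in the fibroblast list too. In spinal cord 22 of the 26 listed targets lay above 0, where the median of all genes was -0.05. Smad7, a target as well, lay at -1.72 there at its brightest probe and at 0.48 at its second. Ccn2, long used as a readout of the pathway, lay at -0.61 in spinal cord and 0.29 in brainstem/cerebellum, and is named here after its values were seen.

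A list of 12 microglial genes that need TGF-beta in mice had 5 genes at least 2-fold higher and 2 lower in spinal cord, and 1 higher in brainstem/cerebellum. The shares over all genes were 8.52% higher and 6.32% lower in spinal cord, and 2.69% higher in brainstem/cerebellum. This list too was chosen with earlier results of these data known. Fcrls, an Fc receptor-like gene of microglia, differed by 2.74 in spinal cord and 1.46 in brainstem/cerebellum. Cx3cr1, the fractalkine receptor, differed by 1.86 and 0.83, and P2ry13, a nucleotide receptor, by 1.71 and 0.68. Olfml3 lay at -1.73 in spinal cord at its brightest probe, while its other probes gave -0.11 to 1.68. Siglech, a lectin of microglia named here after its values were seen, lay at -1.62 in spinal cord, and its other probes gave -1.68 to -0.25, all below 0. In brainstem/cerebellum it lay at 0.43.

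For the pair of members with the widest ranges, Ltbp2 and Tgfb1, the genes with the most similar profiles were sought among 15729 genes, by the root mean square difference of the 4 values after each gene was centred on its own mean. The genes nearest to Tgfb1 were Tmem184a (0.04), Psmb9, an immunoproteasome subunit (0.04), Alox5ap, which serves leukotriene synthesis (0.05), Casp8, an initiator caspase (0.05), and the tetraspanin gene Cd9 (0.06). Psmb9 differed by 1.74 in spinal cord and 0.96 in brainstem/cerebellum, and Casp8 by 1.85 and 0.95, close to the 1.78 and 0.85 of Tgfb1. The genes nearest to Ltbp2 were Dusp5 (0.26), Hes3 (0.33), B3gnt5 (0.34), Il16 (0.41) and Serinc2 (0.58), all lower in spinal cord than in brainstem/cerebellum on both genotypes' arrays. With 4 arrays these distances describe the profiles and carry no test.

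The promoters of Tgfb1 and Tgfbr1 are shown because both genes were higher on the transgenic spinal cord array by similar amounts. The sequences are the 250 bases before the RefSeq start of each gene in GRCm38.p6, with matches to the GC box, GGGCGG or its reverse CCGCCC, in capitals. The Tgfb1 promoter, chr7:25686752-25687001 on the + strand, has 5 matches and a GC content of 75.2%. The Tgfbr1 promoter, the first of 2 listed, at chr4:47352972-47353221 on the + strand, has 2 matches and a GC content of 74.8%.
Tgfb1 promoter: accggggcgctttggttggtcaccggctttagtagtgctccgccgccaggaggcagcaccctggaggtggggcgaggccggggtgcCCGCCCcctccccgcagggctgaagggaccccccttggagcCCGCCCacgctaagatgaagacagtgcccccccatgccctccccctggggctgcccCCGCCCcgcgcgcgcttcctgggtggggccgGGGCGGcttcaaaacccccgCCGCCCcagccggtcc
Tgfbr1 promoter: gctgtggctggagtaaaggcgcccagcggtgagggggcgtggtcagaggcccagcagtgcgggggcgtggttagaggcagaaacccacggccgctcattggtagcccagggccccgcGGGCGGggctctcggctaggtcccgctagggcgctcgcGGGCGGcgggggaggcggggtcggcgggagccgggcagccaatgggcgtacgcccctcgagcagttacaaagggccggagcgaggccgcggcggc
Of 32851 promoter windows of that length, 32.7% hold a GC box, and the median GC content was 52.4%. Ltbp2 has 2 matches at a GC content of 61.6% and Tgfbr2 has 0 at 58.4%, so the 4 genes higher in spinal cord do not all share the box. The CAGA box, CAGACA on either strand, is in 17.1% of all windows, and among these 4 genes only the second promoter of Tgfbr1 held one. No window of the members matched AP-1 (TGANTCA, found in 6.75% of windows) or the palindromic SMAD box (GTCTAGAC, 0.167%). The promoters of Tgfb3 and Smad7 were not analysed here. A match is a description of the letters and not a binding site.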

How the data were processed

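Total RNA was extracted with TRIzol and column purification, amplified and labelled with Cy3, per the labels' protocols. In the deposited scanner files, each spot has an intensity on a linear scale, background-subtracted and detrended within each array by Agilent Feature Extraction and not scaled between arrays, per the file headers. The version is 10.7.1.1 per the file headers and 9.5.1.1 per the submitters' processing notes. The authors' values in the series table are intensities too; their making was not given in the sources used here, and they had a Pearson correlation of 0.999983 over probes with a quantile normalization computed here and the same median of 30.4 in each column. They served as an alternative. Such subtraction and surrogate values for low spots make differences of dim probes less certain.

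From the processed signals, log2 minus the 75th percentile of the array was computed after control and outlier-flagged spots were left out (63 to 134 spots per array). The 75th percentile was 458 (transgenic) and 437 (wild type) in brainstem/cerebellum, and 410 (transgenic) and 678 (wild type) in spinal cord. Each member probe has 1 spot per array, and none was flagged. Probes were named through RefSeq accessions (32981), symbols (10237) or synonyms (520) of assembly GRCm38.p6, and 12867 stayed unnamed. A gene was compared where its brightest probe was above background (the scanner's call) on each of the arrays. Where it was so on 1 array only, the bound is its value minus a floor on the dim array, which is the probe's value there or the lowest value well above background, whichever is higher. The threshold was 2-fold. No test was run, with 1 array per group taken from the genotype and tissue labels. The files give the slide, and a block for it cannot be fitted to 2 arrays.

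The members and the 16 gene lists (185 entries, markers included) were chosen with earlier results of these data known. Named were all members, up to 4 genes per list with the largest difference in either tissue, and the 5 nearest profiles of the 2 members with the widest range, with exceptions stated. Some genes that this rule names appear only in the counts of their list. A gene that it names is not reported here. Alternatives were scaling on the median or on 7 spike-in probes, quantile normalization, cyclic loess, normexp (offset 50) with quantile normalization, the authors' values, the mean over probes, 2 other filters on dim probes, keeping flagged spots, and thresholds of 1.5-fold and 3-fold. R 4.3.3 with limma 3.58.1 and Python 3.11.15 were used, and the counting of differences was tested on simulated data.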

Additional observations from a re-analysis of the deposited data

Results flagged for a closer look

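Smad7 had differences between genotypes of opposite sign in the tissues, -1.72 in spinal cord and 0.27 in brainstem/cerebellum, transgenic minus wild type, at its brightest probe. The spinal cord difference minus the brainstem/cerebellum difference was -1.98. With 1 array per group the contrast between tissues was not tested. At the second probe of Smad7 the same contrast was 0.36, with both differences above 0.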

How the results depend on the processing

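Of 260 values recomputed under 12 alternatives, 205 moved by less than the technical SD or, for counts, by less than 1.5 times. The members' median in brainstem/cerebellum was 0.10 with scaling on the median, and in spinal cord 0.0815 as the mean over probes and 0.0017 with spike-in scaling. At 1.5-fold, 1 member was higher and 1 lower in brainstem/cerebellum, and with the mean over probes 0 members were lower in spinal cord. The count of 4 members higher in spinal cord ran from 3 to 4. Of other pathway genes in brainstem/cerebellum, 1 was higher without a filter and with spike-in scaling, and 5 at 1.5-fold. Lower there were 0 with the filter on all 4 arrays, the mean over probes, normexp and 3-fold, 2 with the authors' values, median scaling and quantile normalization, and 3 without a filter and at 1.5-fold. In spinal cord 14 were higher at 1.5-fold, while 2 were lower with the mean over probes, 1 with normexp and at 3-fold, and 7 with spike-in scaling and at 1.5-fold. Over all genes in spinal cord, spike-in scaling gave 794 higher and 3173 lower, 4.85% and 19.4%, and normexp 903 higher and 514 lower, against 1396 and 1036. In brainstem/cerebellum, against 434 higher and 47 lower, normexp gave 186 and 14 and no filter 1379 and 607, while median scaling gave 96 lower, quantile normalization 80, the authors' values 78 and the mean over probes 73. Among all genes in brainstem/cerebellum, median scaling moved the median to -0.24. The 7 spike-in probes differed by a median of -0.07 in brainstem/cerebellum and 0.42 in spinal cord. At 1.5-fold, 5.98% of all genes above background on both arrays were higher and 2.36% lower in brainstem/cerebellum, and 15.98% and 17.6% in spinal cord. At 3-fold the shares in spinal cord were 4.25% and 1.67%, so the pathway counts at these thresholds are read beside these shares and not as a result about the lists. Why these values moved was not tested. No paired analysis was possible because the labels give no replicate numbers and each group has 1 array, and for the same reason no array could be left out. Dim signal limits Tgfb1, Ltbp1, the spinal cord values of Ltbp2 and several second probes.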
